A study of Homo sapiens with 4 samples.

Results

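The aryl hydrocarbon receptor and 5 of its best-known target genes were followed in A549 cells, a human lung adenocarcinoma line, after 4 h with embelin. The genes were the receptor itself (AHR), its repressor (AHRR), the ADP-ribosyltransferase TIPARP and the cytochrome P450 enzymes CYP1A1, CYP1A2 and CYP1B1. They were found by their symbol or their RefSeq transcript among the 50238 probes that were not controls, and 8 probes matched, 1 each for AHR, TIPARP, CYP1A1 and CYP1B1 and 2 each for AHRR and CYP1A2. Of these, 7 probes passed a filter on dim signals, so that all 6 genes were among the 17649 genes or transcripts tested. The 2 groups were control cells given no embelin (2 samples) and cells given embelin at 15 µM for 4 h (2 samples). Embelin is a benzoquinone with a long alkyl chain. All cells were grown with 10% serum and moved to 2% serum before treatment. The labels give the controls an embelin dose of 0 µM and name no vehicle. They do not say whether the replicates came from separate cultures, so that p-values measure only the spread between these samples. The study asked which pathways respond to embelin early, at a time when apoptosis has begun, and the genes and lists used here do not come from that question.

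AHR is a transcription factor of the bHLH-PAS family that waits in the cytoplasm in a complex with the chaperone HSP90. When a ligand such as a dioxin, a polycyclic aromatic hydrocarbon or a tryptophan metabolite binds, AHR enters the nucleus, pairs with ARNT and binds DNA at response elements with the core GCGTG. CYP1A1, CYP1A2 and CYP1B1, which oxidize such compounds, are its classical targets, and AHRR and TIPARP are targets that in turn damp the receptor. In lung epithelium the pathway is known for its response to tobacco smoke.

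In embelin-treated cells TIPARP rose 3.95-fold and was the only 1 of the 6 genes to pass the test across all genes. This call depended on the processing, since it held in only 8 of 16 alternative settings. CYP1A1 differed by 4.41-fold, with both embelin arrays above both control arrays, but its adjusted p was 0.0628. It passed the filter on dim signals only through the embelin samples. The order of these 2 genes was not fixed, since the log2 fold change of CYP1A1 was below that of TIPARP with normexp background correction (1.32 against 1.95), without control replicate 2 (1.81 against 2.04) and without embelin replicate 2 (1.95 against 2.08). AHRR and CYP1B1 were 1.60-fold and 1.63-fold higher on average, AHR was 1.28-fold lower and CYP1A2 was 1.14-fold higher, and none of these 4 passed the test. The CYP1A2 value came from a probe that shares a stretch with probes for other genes. Among all genes tested, 1.81% were called, 1.25% as higher and 0.561% as lower.

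The promoters of the 3 genes with a match to the core in the 250 bases before a transcription start are shown first. A match of these letters does not show that the receptor binds there. Binding was not measured, and bases further upstream were not searched. They are RefSeq sequences, written 5′ to 3′ on the gene's own strand, and capitals mark GCGTG or its reverse complement CACGC.
CYP1A1 promoter, chr15:74725529-74725778, minus strand, GRCh38.p14: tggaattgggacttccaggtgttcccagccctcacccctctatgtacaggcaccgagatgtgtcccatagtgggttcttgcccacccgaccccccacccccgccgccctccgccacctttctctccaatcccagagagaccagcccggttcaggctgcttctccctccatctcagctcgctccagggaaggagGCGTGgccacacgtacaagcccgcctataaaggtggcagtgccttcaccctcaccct
TIPARP promoter, chr3:156674340-156674589, plus strand, GRCh38.p14: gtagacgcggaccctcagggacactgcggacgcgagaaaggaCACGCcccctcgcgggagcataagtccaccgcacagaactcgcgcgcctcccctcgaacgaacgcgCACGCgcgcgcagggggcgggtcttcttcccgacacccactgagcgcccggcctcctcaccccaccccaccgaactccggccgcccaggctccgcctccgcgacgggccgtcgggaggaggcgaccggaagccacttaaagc
AHRR promoter, chr5:321464-321713, plus strand, GRCh38.p14: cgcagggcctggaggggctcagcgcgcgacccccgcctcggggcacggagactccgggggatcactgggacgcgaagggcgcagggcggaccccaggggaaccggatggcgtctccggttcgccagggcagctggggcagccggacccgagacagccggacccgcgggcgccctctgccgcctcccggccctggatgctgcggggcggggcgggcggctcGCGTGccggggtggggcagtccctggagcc

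CYP1A1 held 1 core, 57 bases before its start. The first of the TIPARP starts held 2 cores, 208 and 142 bases before it, and the other starts of TIPARP in the table held none. The first AHRR start held 1 core at 30 bases, and its second start held 2. AHR and CYP1A2 held none in this window, which says only that these letters are not there. CYP1B1 was not in the promoter table. Counted by promoter, 4 of the 8 entries of these genes held a core, against 32.2% of the 35116 promoters in the table and 42.7% of the 14795 promoters that belong to genes tested here. Counted by gene, with a core at any start, 3 of 5 genes held one, against 36.2% of 27305 genes in the table and 52.2% of 10176 genes tested here. No result for another motif is given.

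Signals are given as normalized log2 intensities, after the 75th percentile of the 4 arrays had been made equal at a log2 signal of 9.40. A step of 1 on this scale is a doubling, and levels of different probes are not comparable with each other. A single slide, scanned once, held all 4 arrays, the controls at positions 4 and 1 and embelin at 2 and 3. The share of probes well above background was 66.7% for control replicate 1 and 66.4% for embelin replicate 2, but 50.3% for control replicate 2 and 51.2% for embelin replicate 1, so that each group had 1 array with a noisier background. No spot was saturated. All 5 epithelial markers (KRT8, KRT18, KRT19, EPCAM and CDH1) were measured on all 4 arrays and none was called. Of 7 markers of fibroblasts, blood cells and endothelium, only COL1A1 and CD68 passed the filter, at log2 fold changes of 1.30 (adjusted p = 0.0547) and 0.39 (adjusted p = 0.425, limma). The part of these markers in any result was not tested.

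**Figure D1:**
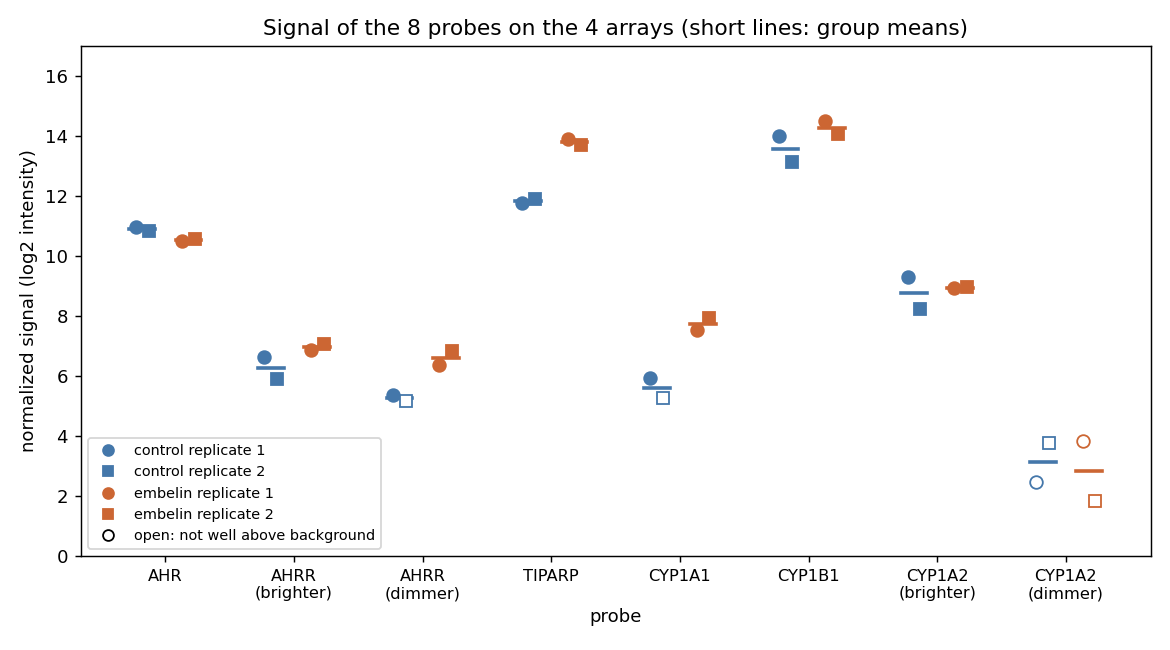
Normalized signal (log2 intensity, vertical axis) of each of the 8 probes (horizontal axis) on the 4 arrays. Points are single arrays, short lines are group means and open points are spots not well above background. The embelin points of TIPARP and CYP1A1 stand clear above the control points, those of AHR lie just below, and those of the brighter CYP1A2 probe lie between the 2 controls.

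AHR, the receptor, was well above background on every array. Its log2 signal was 10.97 and 10.83 in the control samples and 10.51 and 10.58 in the embelin samples. Both embelin samples were below both controls, and the replicates of each group differed little. The log2 fold change was -0.35 (SE 0.17, 95% confidence interval -0.81 to 0.10, adjusted p = 0.346), so that no change of the receptor's own transcript was called. The difference was -0.39 between the arrays of low background and -0.32 between the noisier ones. Groups that do not overlap were common in these data, being seen in 51.8% of the 17298 genes with a value on all 4 arrays, and 30.7% had both embelin samples below both controls. In RNA from a whole culture, fewer cells that express a gene and less RNA per cell cannot be told apart.

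AHRR, a relative of the receptor that competes with it for ARNT and response elements, was measured by 2 probes. The brighter probe read 6.65 and 5.92 in the controls and 6.87 and 7.05 with embelin. Both embelin samples were above both controls, though embelin replicate 1 was close to control replicate 1. Its log2 fold change was 0.68 (SE 0.30, 95% confidence interval -0.16 to 1.51, adjusted p = 0.332). The dimmer probe read 5.38 and 5.16 in the controls and 6.36 and 6.83 with embelin. Only control replicate 2 was not well above background, so that this probe passed the filter only through the embelin samples. Here the groups stood further apart. In a fit in which every probe was counted on its own, the dimmer probe had a log2 fold change of 1.32 (SE 0.25, 95% confidence interval 0.66 to 1.99, adjusted p = 0.102). Both AHRR probes were thus higher in the embelin samples, neither passed the test, and their mean gave a log2 fold change of 1.00. The value of the brighter probe depended on 1 control array, being 1.04 without control replicate 1 and 0.31 without control replicate 2. It was 0.40 between the arrays of low background and 0.95 between the noisier ones.

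TIPARP (also known as PARP7) attaches ADP-ribose to proteins, AHR among them, and limits the receptor's activity. Its log2 signal was 11.77 and 11.89 in the control samples and 13.91 and 13.71 in the embelin samples. The gap between the groups was many times the gap within either of them. The log2 fold change was 1.98 (SE 0.18, 95% confidence interval 1.50 to 2.46, adjusted p = 0.0354), a rise of 3.95-fold (2.83-fold to 5.51-fold). TIPARP ranked 141st of 17649 genes by p. The rise was alike in the arrays of low background (1.94, embelin replicate 2 minus control replicate 1) and in the noisier pair (2.02, embelin replicate 1 minus control replicate 2). The call did not hold with a block for arrays of like background (adjusted p = 0.183) or with the replicate number as a block (0.0842). It also did not hold by the methods' t-test (0.178) or with dim probes kept in (0.383). The estimate was 1.98 in each of these settings, which use the same values and cannot move it. Leaving out 1 array gave 1.92 without control replicate 1, 2.04 without control replicate 2, 1.88 without embelin replicate 1 and 2.08 without embelin replicate 2. The adjusted p in these 4 fits was 0.0823, 0.158, 0.213 and 0.0966, in the same order. An exact permutation test of 2 samples against 2 cannot give a p below 0.333.

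CYP1A1, the enzyme most widely used as a readout of receptor activity, was dim in control cells. Its log2 signal was 5.93 and 5.27 in the controls, the second of which was not well above background, and 7.55 and 7.93 in the embelin samples, both well above background. Both embelin samples were far above both controls. The log2 fold change was 2.14 (SE 0.31, 95% confidence interval 1.30 to 2.98, adjusted p = 0.0628), or 4.41-fold (2.46-fold to 7.91-fold). CYP1A1 passed the filter only through the embelin samples. The fold rests in part on a control value not well above background, so that its size is uncertain. The difference was 2.00 in the pair of low background and 2.28 in the noisier pair. The call depended on the processing. With normexp background correction the log2 fold change fell to 1.32 while the adjusted p was 0.0245, and with a trended, robust prior in limma the change was 2.14 with an adjusted p of 0.0362. Without control replicate 2, the array on which it was dim, the log2 fold change was 1.81.

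CYP1B1 oxidizes polycyclic hydrocarbons and oestrogens and, unlike CYP1A2, is found mostly outside the liver. It read 14.00 and 13.13 in the controls and 14.50 and 14.05 with embelin. The groups did not overlap, but embelin replicate 2 lay only 0.05 above control replicate 1. The log2 fold change was 0.71 (SE 0.38, 95% confidence interval -0.32 to 1.73, adjusted p = 0.393), and no change was called. The difference was 0.05 in the pair of low background and 1.37 in the noisier pair. Leaving out control replicate 2 gave 0.27 and leaving out control replicate 1 gave 1.15, so that the control replicates decided its size. The gap of 0.88 between the controls was wider than that of 90.4% of genes, the median gap being 0.25.

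CYP1A2, mainly a liver enzyme that handles caffeine and aromatic amines, was measured by 2 probes that differed. The brighter probe read 9.28 and 8.23 in the controls and 8.93 and 8.97 in the embelin samples. The embelin values lay between the controls, whose gap of 1.06 was wider than that of 93.0% of genes. The log2 fold change was 0.19 (SE 0.40, 95% confidence interval -0.90 to 1.28, adjusted p = 0.844), and it turned from 0.72 without control replicate 1 to -0.34 without control replicate 2. Its sign also differed between the pair of low background (-0.32) and the noisier pair (0.70). The other probe read 2.47 and 3.77 in the controls and 3.83 and 1.83 with embelin, and was not well above background on any of the 4 arrays. No fold is given for it.

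The sequences of these 2 probes, from the deposited files, are shown because the brighter one shares a stretch with probes for other genes. Capitals mark that stretch, and 30 of its 60 bases are given.
CYP1A2 brighter probe, bases 29 to 58: gtgcaggGCCTGTAATCCCAGCAttttggg
CYP1A2 dimmer probe: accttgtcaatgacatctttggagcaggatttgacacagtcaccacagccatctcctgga

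The 16 bases in capitals, positions 36 to 51 of the brighter probe, shared a run of at least 15 bases with 7 probes of 7 other genes, the small cytoplasmic RNA BC200 among them, and no run of 20 bases was shared. The dimmer CYP1A2 probe and the other 6 probes of the 6 genes shared no run of 15 bases with a probe for another gene. The 7 probes were well above background on all 4 arrays, with log2 signals from 15.4 to 18.1. Their differences between embelin and control ranged from -0.05 to 0.11, and control replicate 1 was above control replicate 2 by 0.19 to 0.68. The part of this stretch in the signal of the brighter CYP1A2 probe was not tested.

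**Figure D2:**
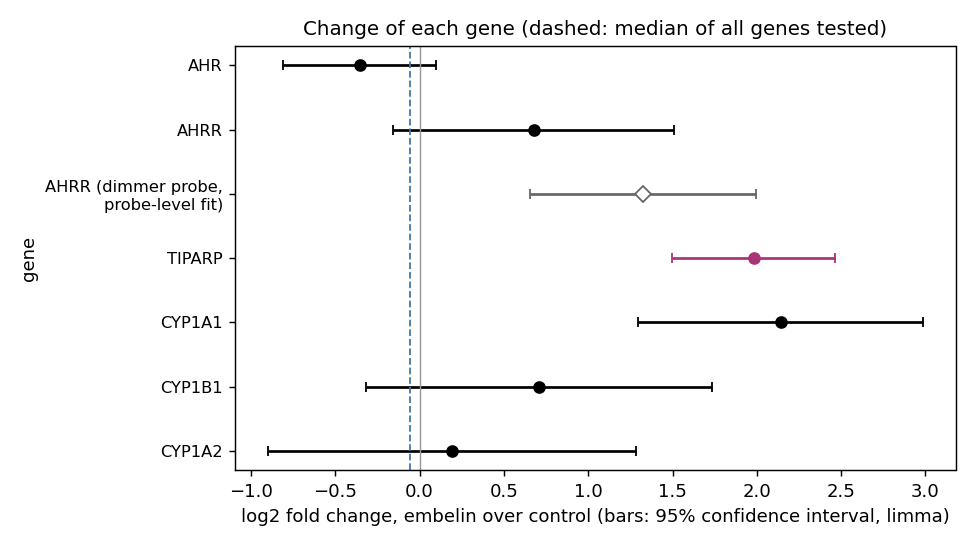
Log2 fold change of embelin over control (horizontal axis) for each gene (vertical axis), with 95% confidence intervals from limma. The dashed line is the median of all genes tested, -0.06. The intervals of TIPARP, CYP1A1 and the dimmer AHRR probe lie above 0 and those of AHR, CYP1B1, CYP1A2 and the brighter AHRR probe include it. TIPARP, in colour, is the only gene with an adjusted p under 0.05.

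Over the 6 genes the median log2 fold change was 0.69, with 5 above 0 and 1 below, while over all genes it was -0.06, with 7746 above 0 and 9902 below. The median rested on the control arrays, being 0.29 without control replicate 2, with 4 genes above 0 and 2 below, and 1.09 without control replicate 1. CYP1A2, 1 of the 5 genes above 0 with all arrays, was read by the probe that shares a stretch with probes for other genes. Its other probe was well above background on no array. In 4 of the 6 genes (AHRR, TIPARP, CYP1A1 and CYP1B1) both embelin samples were above both controls, a pattern found in 21.1% of all genes. Changes of at least 2-fold upward, seen for TIPARP and CYP1A1, were found in 6.66% of all genes. An unadjusted p under 0.05 (limma) was seen for the same 2 genes and in 19.5% of all genes. CYP1A1 enters each of these counts although it passed the filter only through the embelin samples. These are counts over 6 genes that share the same 4 arrays, and the differences among the genes, such as that between CYP1A1 and CYP1B1, were not tested.

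Over the 6 lists of other pathway genes, 2 of 60 genes tested were called, both as higher, beside 1.81% of all genes. Among 11 genes tested of 12 for the receptor's complex and cofactors, none was called in either direction. An unadjusted p under 0.05 (limma) was seen for 1 of them, beside 19.5% of all genes. The median log2 fold change was -0.06, the same as over all genes. ARNT, the partner of AHR, read 8.21 and 8.21 in the controls and 7.65 and 8.59 with embelin, so that the groups overlapped, as they did for both HSP90 genes. The widest differences were those of NRIP1, a nuclear receptor corepressor (log2 fold change -0.72, adjusted p = 0.143), and CREBBP, a histone acetyltransferase (0.41, adjusted p = 0.356).

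Among the other bHLH-PAS factors, which share the family's domains and in part the partner ARNT, 10 of 12 were tested and none was called, with a median of 0.06. HIF3A, a hypoxia-inducible factor, differed by 1.09 (adjusted p = 0.284) and had only 1 control array well above background. This difference was 0.35 with normexp background correction, 0.54 without embelin replicate 1 and 1.64 without embelin replicate 2. EPAS1, which encodes HIF-2α, read 14.13 and 14.08 in the controls and 14.79 and 14.88 with embelin, a log2 fold change of 0.73 (SE 0.16, adjusted p = 0.121). At an unadjusted p under 0.05 (limma), seen in 19.5% of all genes, 1 gene of the list was higher (EPAS1) and 2 were lower. These were HIF1A, the oxygen-regulated factor, at -0.61 (adjusted p = 0.155), and the clock factor BMAL1 at -0.50 (adjusted p = 0.251).

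Of 16 further genes reported as AHR targets, 13 were tested and 2 rose, with none lower. By the same criterion 1.25% of the whole series rose and 0.561% fell. This list was chosen with earlier results of these data known, so that its count of calls is a description and not a test. STC2, which encodes the secreted glycoprotein stanniocalcin 2, read 10.03 and 10.55 in the controls and 15.30 and 15.79 with embelin. Its log2 fold change of 5.25 (SE 0.29, adjusted p = 0.0204) was far above that of any of the 6 genes, and its other probe differed by 3.60. CCNG2, which encodes the growth-restraining cyclin G2, read 10.12 and 9.79 in the controls and 11.88 and 11.98 with embelin, a log2 fold change of 1.98 (SE 0.20, adjusted p = 0.0406). Both calls were lost when any 1 of the 4 arrays was left out, with STC2 between 4.99 and 5.52 and CCNG2 between 1.81 and 2.14, with either block, by the methods' t-test and with dim probes kept in. STC2 and CCNG2 are also known to respond to other signals, such as cell stress and growth arrest. The cause of their rise, like that of the rise of TIPARP, was not tested. CDKN1B, a cyclin-dependent kinase inhibitor, and EREG, a growth factor of the EGF family, differed by 0.93 (adjusted p = 0.127) and 0.90 (adjusted p = 0.168). The detoxifying enzymes usually named beside CYP1A1 were not called, with log2 fold changes of -0.10 for NQO1 (adjusted p = 0.818), -0.24 for ALDH3A1 (adjusted p = 0.553) and -0.37 for UGT1A6 (adjusted p = 0.374), whose last exons are shared across the UGT1A genes. The median over the 13 genes was 0.20.

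Of the 15 PARP relatives of TIPARP, 12 were tested, none was called and the median was -0.18. PARP9, a family member of the interferon response, differed in the opposite direction to TIPARP, reading 9.27 and 9.45 in the controls and 7.65 and 7.94 with embelin, with a log2 fold change of -1.57 (SE 0.20) that missed the threshold (adjusted p = 0.0532) and passed it with normexp background correction (adjusted p = 0.0278). Its other kept probe differed by -0.82, and the mean over both gave -1.19. PARP6 differed by 0.60 (adjusted p = 0.234). Of 20 other xenobiotic P450 genes and electron donors, only 8 passed the filter, none was called and the median was -0.24. CYP2R1, a vitamin D hydroxylase, differed by -0.80 (adjusted p = 0.106) and CYP3A7, the fetal liver form, by -0.78 (adjusted p = 0.175). Of 8 enzymes that turn tryptophan into kynurenine and its products, a source of natural AHR ligands, 6 were tested and none was called, with a median near 0 (-0.005). AADAT differed by 0.63 (adjusted p = 0.365) and TDO2, which makes the first step, by -0.20 (adjusted p = 0.782).

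**Figure D3:**
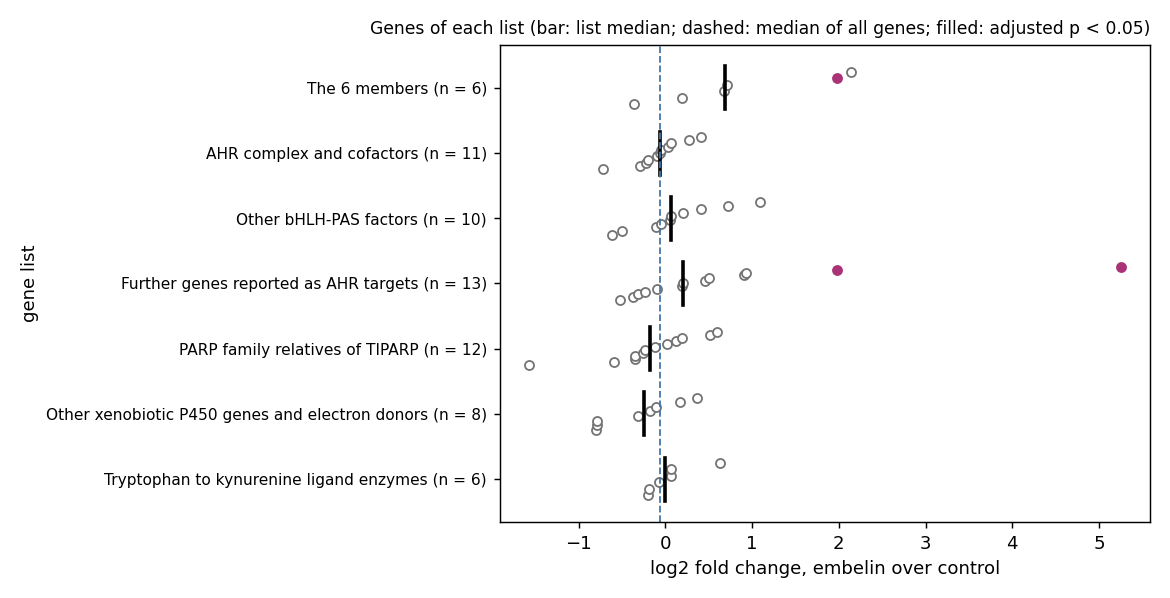
Log2 fold change of embelin over control (horizontal axis) for the tested genes of each list (vertical axis, with the number tested). Points are genes, filled where the adjusted p was under 0.05, bars are list medians and the dashed line is the median of all genes. Filled points are TIPARP, STC2 and CCNG2, and STC2 stands apart at 5.25.

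For each of the 6 genes, the 2 genes with the most similar profile were taken as those at the smallest Euclidean distance between log2 values over the 4 arrays, each gene centred on its own mean, among 17298 genes. TIPARP was nearest to EFNA1, a membrane-bound ephrin ligand (distance 0.10, log2 fold change 1.95, adjusted p = 0.0304), and to NFIL3, a bZIP transcription factor (distance 0.13, log2 fold change 2.04, adjusted p = 0.0267). CYP1A1 was nearest to LRRC8C, a subunit of volume-regulated anion channels (distance 0.09, log2 fold change 2.12, adjusted p = 0.0625), followed by a transcript with no gene symbol. Neither CYP1A1 neighbour was called, and the calls of EFNA1 and NFIL3 were lost when any 1 array was left out. AHR was nearest to a transcript with no gene symbol and to TGS1, AHRR to SMPDL3A and VSIG8, CYP1A2 to ILDR1 and a 7SL RNA probe, and CYP1B1 to C1QTNF12 and ABRAXAS2, at distances from 0.02 to 0.07. With 4 arrays such likeness describes these samples only.

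**Figure D4:**
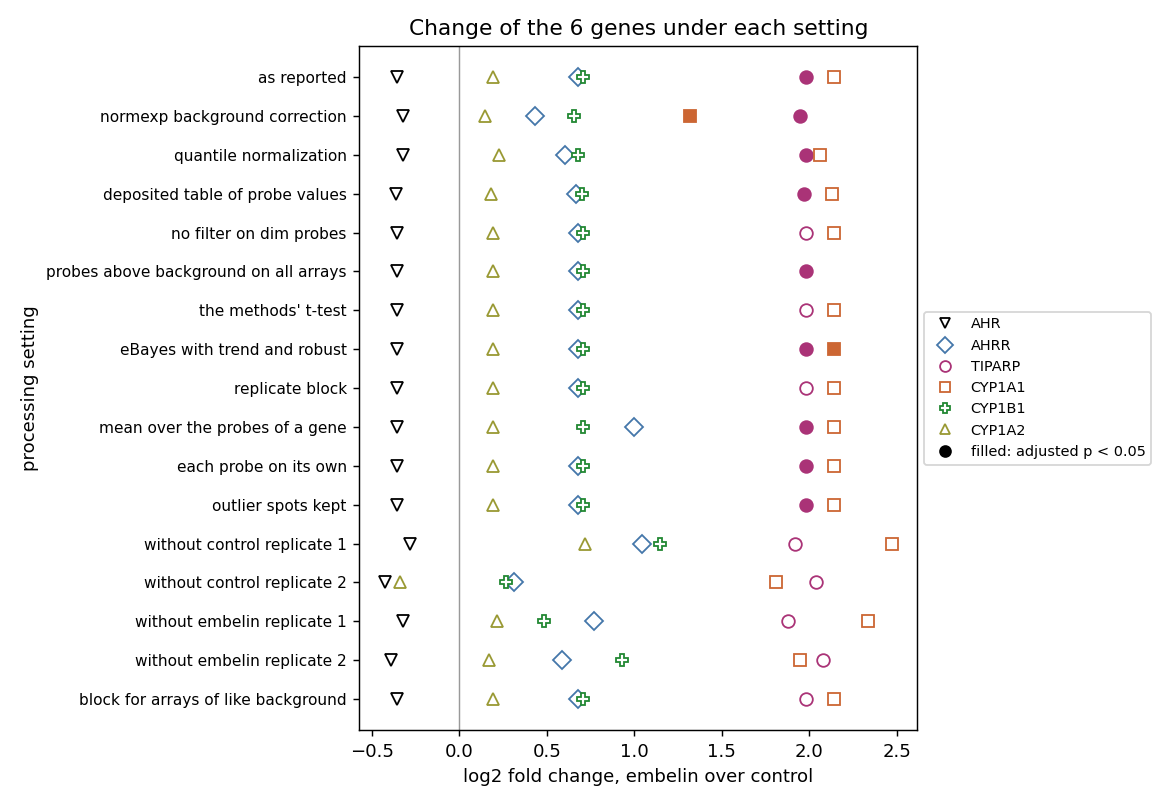
Log2 fold change of embelin over control (horizontal axis) of the 6 genes under each processing setting (vertical axis), filled where the adjusted p was under 0.05. TIPARP stays between 1.88 and 2.08 in every setting and CYP1A1 between 1.32 and 2.47, while CYP1A2 crosses 0 without control replicate 2.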

How the data were processed

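Gene expression was measured on 4 single-colour (Cy3) Agilent arrays of 60-base probes, 1 for each of 2 control and 2 embelin samples. The deposited intensities were written by Agilent Feature Extraction 10.7.3.1 (per the file headers). That software subtracted background and corrected trends within each array, and no normalization between arrays was made. The authors also deposited a table of probe values holding the same intensities averaged over spots, used as an alternative after the same scaling. The methods name a 75th percentile shift and Student's t-test.

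Spots marked as outliers were left out of the signals, but not of the scaling or of the filter on dim probes. Each array's deposited intensities were scaled to equal 75th percentiles, floored at 1 and converted to log2. A probe was kept if both arrays of either group had it well above background (26146 of 50238 probes), and the kept probe with the highest mean signal stood for a gene. Of the probes, 28595 were named by accession in a RefSeq gene table of assembly GRCh38.p14, 2341 through another probe of the same name and 19302 kept the name in the files. AHRR kept the name in the files. Groups were compared with limma 3.58.1 (lmFit and eBayes) in R 4.3.3, with Benjamini-Hochberg adjustment over 17649 genes and a threshold of 0.05, and the fit was tested on simulated data. Genes had a median pooled SD of 0.21 (log2). With 4 arrays, precision is limited by their number.

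The 6 genes, the lists and the alternatives were chosen with earlier results of these data known. Named were all probes of the 6 genes, in each list every gene called (up to 6) and the 2 with the largest change among those not called, and the 2 nearest genes of each of the 6. ARNT, HIF1A, BMAL1, NQO1, ALDH3A1, UGT1A6 and the cell type markers were named beyond that rule, after their values were seen. Promoter sequences came from RefSeq (GRCh38.p14), and probe sequences from the files. Lists were described by counts and medians, with no set test. Alternatives were normexp background correction (offset 50), quantile normalization, the deposited table, no filter or a filter on all 4 arrays, the methods' t-test, a trended and robust prior, a block for the replicate number, the mean over probes, each probe counted alone, outlier spots kept and each array left out in turn. A block for arrays of like background was added after the values were seen.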

Additional observations from a re-analysis of the deposited data

How the results depend on the processing

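Directions of AHR, AHRR, TIPARP, CYP1A1 and CYP1B1 were the same in every alternative that gave a value. Their groups did not overlap, so that leaving out 1 array could not turn a direction. Either block, the methods' t-test, the trended prior and no filter used the same values and could not move these estimates. CYP1A2 turned to -0.34 without control replicate 2, and with it its nearest neighbour ILDR1 (-0.36). TDO2 turned to 0.14 without control replicate 1, and ranged down to -0.54 without control replicate 2. Of 95 values of the 6 genes under alternatives, 84 kept direction and call, and CYP1A1 gave no value with the filter on all 4 arrays. For every gene but TIPARP, keeping the call meant staying uncalled. TIPARP kept its call in only 8 of 16 alternatives. The call of TIPARP was lost with no filter (adjusted p = 0.383), the methods' t-test, the replicate block and the block for arrays of like background. These settings cannot move its estimate of 1.98. Without 1 array the change of TIPARP ranged from 1.88 to 2.08. CYP1A1 was called with normexp (1.32) and the trended prior (2.14). Without 1 array it ranged from 1.81 to 2.47, AHR from -0.43 to -0.28, AHRR from 0.31 to 1.04, CYP1B1 from 0.27 to 1.15 and CYP1A2 from -0.34 to 0.72.

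The number of genes called moved most. Against 221 higher and 99 lower, normexp gave 422 and 277, the filter on all 4 arrays 419 and 345, the trended prior 566 and 499, the deposited probe values 126 and 33 and outlier spots kept 137 and 40. Lower calls were 63 with quantile normalization, 56 with probe means and 65 with each probe counted alone. With no filter, the methods' t-test, the replicate block, the block for like background and without any 1 array (0 to 0), limma or the t-test called 0 genes, although 1106, 1161, 1673, 1240 and 973 to 1431 genes were higher at an unadjusted p under 0.05. Both calls among the further AHR targets were lost (0) in these settings, and 1 was left with the deposited probe values, probe means or outlier spots kept. PARP9 became a call (1) under normexp, the filter on all 4 arrays and the trended prior, which also gave 1 call each for the receptor complex, the bHLH-PAS factors and the other P450 genes.

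The labels do not say what the replicate numbers stand for, and whether same-numbered samples share a batch cannot be told from 2 pairs. Deviations of same-numbered arrays correlated at 0.175 across genes, a value that this design forces to be equal and opposite for the other pairing (-0.175). The block for the replicate number called 0 genes and changed no call among the 6 genes other than that of TIPARP (1.98, adjusted p = 0.0842).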
